A study of Mus musculus with 11 samples.

Results

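The genes described here encode the nuclear-encoded subunits of the mitochondrial respiratory chain and of ATP synthase, together with 3 factors whose symbols share their stems. They were taken by symbol, as every gene beginning with Nduf, Uqcr, Atp5 or Cox4 to Cox8, plus Cyc1 and Sdha to Sdhd. That rule found 76 of the 31508 symbols on an Illumina mouse BeadChip, a glass array read by fluorescence, and 70 of them had a probe detected (detection p under 0.05) on at least 3 of 11 arrays. The 70 lay among 12512 genes that passed the same filter: 30 of complex I, 3 of complex II, 7 of complex III, 12 of complex IV, 15 of ATP synthase and 3 factors. Neither the rule nor the filter used the differences between the groups, but the set was chosen with earlier results of these data known.

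Liver RNA came from female C57Bl/6 mice, 1 array per animal. Mice killed at 12 h (4 arrays; RF or Rev Flip in the labels, a term they do not explain) and at 6 h (4 arrays; AIHM) had been injected with 5'-adenosine monophosphate, the nucleotide 5'-AMP, at 0.5 mg per g body weight. Control mice (3 arrays) received the vehicle, and the hour at which they were killed is not given, so time of day and treatment cannot be told apart. No genetic change is named for any group.

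The respiratory chain passes electrons from NADH and succinate through complexes I, II, III and IV to oxygen and pumps protons out of the mitochondrial matrix, and ATP synthase uses their return flow to make ATP from ADP. Complex I takes electrons from NADH, complex II oxidises succinate and is also an enzyme of the tricarboxylic acid cycle, complex III passes electrons to cytochrome c and complex IV reduces oxygen. Most subunits are encoded in the nucleus, a few core ones in mitochondrial DNA, and hepatocytes are rich in mitochondria.

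Values below are normalised log2 intensities, and a fold change is a difference of group means on that scale, given with its standard error from 1 limma fit over all 12512 genes (p-values adjusted by Benjamini and Hochberg over all of them, threshold 0.05). Levels of different probes are not comparable, so each gene is compared only with itself. Mean raw signal per array was 412 to 494 at 12 h, 458 to 635 at 6 h and 422 to 542 in controls, and 15131 to 15903 probes were detected on each array. Hepatocyte markers were present throughout, with 8 or 9 of 10 detected on every array. In whole liver, fewer cells of a type and less RNA per cell cannot be told apart.

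Several arrays carried markers of other tissues. On array 2 of the 6 h group 6 of 7 skeletal muscle markers were detected, among them Acta1, the actin of skeletal muscle, at 12.48 against 4.42 to 4.88 on the other 10 arrays, while the myosin gene Myh4 was not detected. The summed level of the 7 markers was 174 to 180 at 12 h, 177 to 11923 at 6 h and 171 to 180 in controls. On 6 h array 4 a single muscle marker, Myl1, was detected. Of 4 white fat markers, 0 to 3 were detected on an array. Adipoq was detected on 5 arrays, control arrays 1 and 2 among them. It measured 7.60 on 6 h array 2 and 4.59 to 6.16 on the others. The summed level of the 4 markers was 107 to 1207 at 12 h, 122 to 1772 at 6 h and 310 to 671 in controls. Of 5 markers of the exocrine pancreas, 5 were detected on 6 h array 4, 4 on 12 h array 2 and 1 or 2 on the other arrays. The lipase gene Pnlip measured 6.97 on 12 h array 2, 9.30 on 6 h array 4 and 4.42 to 4.69 on the others. The summed level of the 5 markers was 1177 to 1587 at 12 h, 1324 to 3338 at 6 h and 1024 to 1244 in controls. It includes Cela1, detected on all 11 arrays, at 10.07 to 10.27 at 12 h, 10.26 to 10.87 at 6 h and 9.85 to 10.12 in controls. On 6 h arrays 1 to 3 Cela1 was the only pancreas marker detected. The summary of the 6 h group, and the values of some named genes, are also given without 6 h array 2.

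Among the marker genes that entered the test, 3 passed against control at one or both times. S100a8, a neutrophil calcium-binding protein, rose by 1.70 ± 0.41 at 12 h (adjusted p = 0.0445) and by 2.01 ± 0.41 at 6 h (adjusted p = 0.0409), with no overlap between either time and the controls. The other neutrophil markers did not pass or were not tested. S100a9 had 1.18 ± 0.41 at 12 h (adjusted p = 0.151) and 1.42 ± 0.41 at 6 h (adjusted p = 0.125). Ltf had -0.32 ± 0.77 at 12 h and 0.00 ± 0.77 at 6 h. Ngp and Mpo were detected on 0 arrays and Camp on 1. Lrat, the retinol-esterifying enzyme of stellate cells, had -1.07 ± 0.24 at 12 h (adjusted p = 0.0309) and -0.58 ± 0.24 at 6 h (adjusted p = 0.249). Other stellate markers did not pass or were not tested. Des had -0.50 ± 0.53 and Acta2 -0.16 ± 0.48 at 12 h. Col1a1 was detected on 1 array and Col3a1 on 2. Pck1, the gluconeogenic enzyme counted here as a hepatocyte marker, had 1.38 ± 0.31 at 12 h (adjusted p = 0.0306). The part of cell composition in the values below was not tested.

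The muscle array also showed up within complex IV, several of whose subunits exist in a form of heart and skeletal muscle and a form of other tissues. Cox6a2, the muscle form of subunit VIa, measured 8.73 on 6 h array 2 and 4.58 to 4.88 on all others. Cox8b, a form of subunit VIII found in mouse muscle and brown fat, measured 7.48 on that array and 4.46 to 5.29 on the rest. Each was detected on that array only, so neither entered the test. Cox7a1, the muscle form of subunit VIIa, was detected on all 11 arrays, measured 6.86, 7.37, 7.41 and 7.14 at 12 h, 7.27, 7.98, 7.05 and 7.24 at 6 h and 7.15, 6.99 and 7.78 in controls, and was also highest on 6 h array 2. Its groups overlapped.

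**Figure D1:**
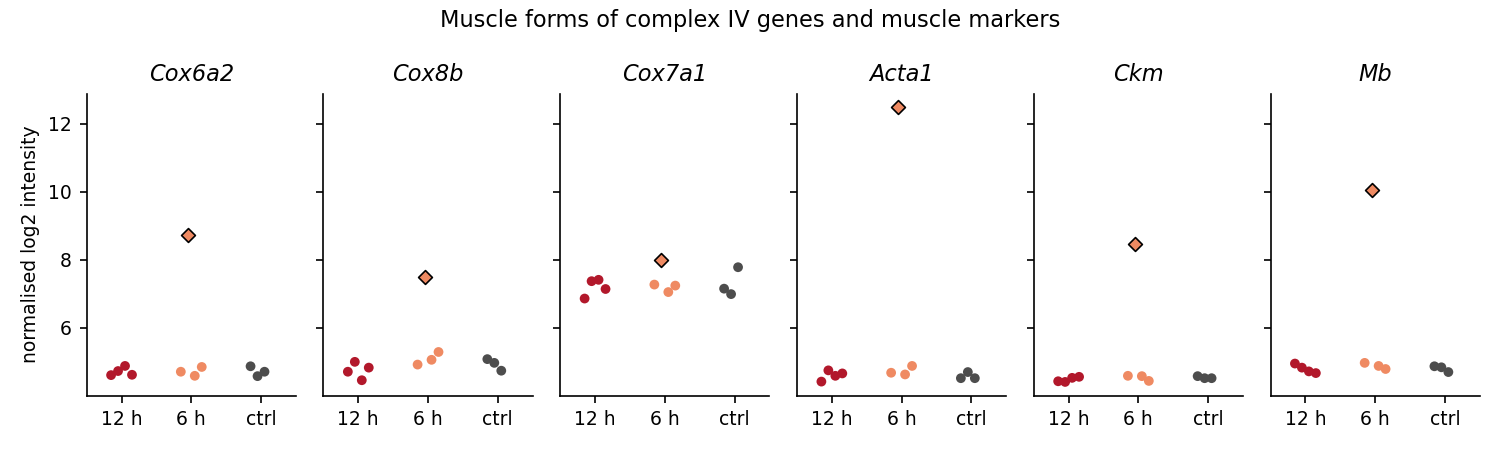
Normalised log2 intensity of 3 complex IV genes with muscle forms and of 3 skeletal muscle markers, 1 point per array, for 12 h, 6 h and control (ctrl) livers. The outlined diamond is 6 h array 2, where Cox6a2 measured 8.73, Cox8b 7.48 and Acta1 12.48, above all other arrays.

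Of the other symbols without a kept probe, Cox4i2, the form of subunit IV expressed in lung, Cox8c, a testis form of subunit VIII, Sdha, the flavoprotein of complex II, and Ndufs1, an iron-sulfur core subunit of complex I, were detected on 0 arrays. Sdha and Ndufs1 are essential catalytic subunits, so their probes, which ran from 4.48 to 4.88 for Sdha and from 4.40 to 4.69 for Ndufs1, give no measure of these genes here. Of the 70 members 67 were detected on every array, and the other 3 were Atp5k, Ndufb4 and Uqcrfs1.

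Most of the 70 genes sat slightly below control after 5'-AMP, none of them past the threshold. At 12 h the median log2 fold change was -0.16 against -0.04 for all genes tested, and 60 of 70 members were below 0, against 56.4% of all genes. At 6 h the median was again -0.16, against -0.02 for all genes, and 49 of 70 were below 0, against 52.6%. With the limma fit 0 of 70 members were called at 12 h, where 3.23% of all genes were called (1.4% lower, 1.83% higher). At 6 h 0 of 70 were called, where 1.13% of all genes were (0.4% lower, 0.727% higher). Both comparisons use the same 3 control arrays, so they are not independent of each other. These counts moved with the scaling. Centring each array on its median gave 68 of 70 below 0 at 12 h and 40 of 70 at 6 h, with all genes at medians of -0.11 at 12 h and 0.12 at 6 h. With array brightness as a covariate, 51 of 70 were below 0 at 12 h and 51 of 70 at 6 h.

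At an unadjusted p under 0.05 the count was 8 of 70 at 12 h, all with negative values, against 17.7% of all genes (10.4% lower, 7.29% higher). At 6 h it was 18 of 70, of which 14 were negative and 4 positive, against 16.7% of all genes (8.68% negative, 8.06% positive). The 12 h share of members, 11.4%, lay close to the background for lower genes, and the 6 h share of lower members, 20%, lay above it. Groups did not overlap for 17 members lower at 12 h (11.7% of all genes did so) and 1 higher (9.02%), and for 13 members lower at 6 h (7.04%) and 5 higher (6.84%). The median half-width of a member's 95% interval was 0.28 log2 units in both comparisons. Changes of 1 log2 unit, which is 2-fold, lay outside the interval for 65 of 70 members at 12 h and for 61 of 70 at 6 h.

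By array, the median member lay at -0.17, -0.12, -0.15 and -0.14 relative to its control mean on the 12 h arrays, at -0.23, -0.01, -0.21 and -0.01 on the 6 h arrays and at 0.02, -0.05 and 0.03 on the control arrays. The 12 h arrays were all below the controls and close together. The control arrays lie near 0 by construction, since the values are relative to their own mean. An error in that mean would move all treated arrays together. The 6 h arrays split, with arrays 1 and 3 low and arrays 2 and 4 within the control range. Arrays 2 and 4 were also the 2 brightest arrays of the study, with mean raw signals of 635 and 607, and the part of brightness or of the muscle and pancreas markers in this split was not tested. Without 6 h array 2 the 6 h median was -0.19, 55 of 70 members were below 0 and 2 members were called, where 1.33% of 12374 genes were called, Ndufs7 and Cox5b. By complex, the count below 0 at 6 h without array 2 was 24 of 30 in complex I, 2 of 3 in complex II, 4 of 7 in complex III, 11 of 12 in complex IV and 11 of 15 in ATP synthase. Without 6 h array 1 the 6 h median was -0.08.

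**Figure D2:**
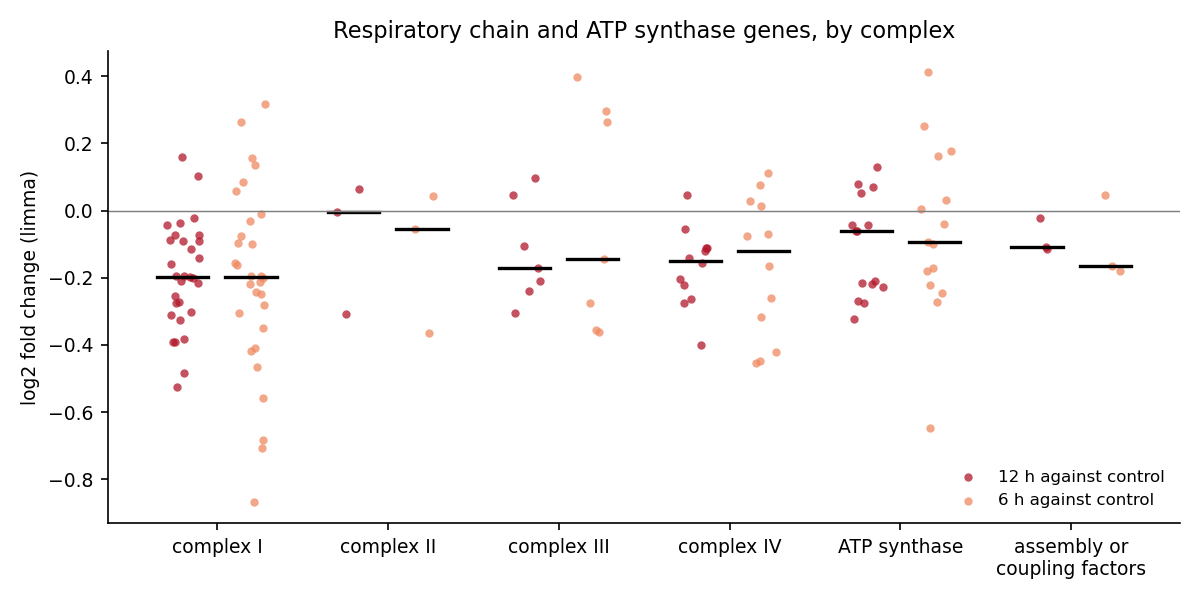
Log2 fold change of the 70 genes (1 point per gene) against control at 12 h (dark red) and 6 h (orange), by complex, with a black bar at each median. In complex I 28 of 30 genes lay below 0 at 12 h and 24 of 30 at 6 h, and no point passed the threshold.

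Complex I, the NADH dehydrogenase, had 30 measured genes with a median of -0.20 at 12 h (28 below 0) and -0.20 at 6 h (24 below 0). Of the 6 measured core subunits, which carry the flavin and the iron-sulfur clusters, 5 were below 0 at 12 h (median -0.15) and 6 at 6 h (median -0.24). The 24 accessory subunits, which surround the core, had medians of -0.20 at both times. The smallest p in the complex belonged to a core subunit at both times.

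Ndufs7 encodes the core subunit that holds the last iron-sulfur cluster before the quinone. It measured 12.55, 12.57, 12.65 and 12.51 at 12 h, 12.35, 12.80, 12.22 and 12.60 at 6 h and 13.13, 12.97 and 13.06 in controls. Every 5'-AMP array was below every control array, and the highest of the treated arrays was 6 h array 2. The log2 fold change was -0.48 ± 0.14 at 12 h (adjusted p = 0.098) and -0.56 ± 0.14 at 6 h (adjusted p = 0.0887). Without 6 h array 2 the 6 h value was -0.66 ± 0.13 and passed (adjusted p = 0.0359). Over the 24 settings other than the main fit, this one among them, the 6 h adjusted p ran from 0.0289 to 0.295. Within the chips that held both groups, the difference from control was -0.40 and -0.62 at 12 h and -0.48, -0.75 and -0.53 at 6 h.

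Other core subunits also had groups that did not overlap. Ndufs8, an iron-sulfur subunit, had -0.26 ± 0.12 at 12 h (adjusted p = 0.301) and -0.35 ± 0.12 at 6 h (adjusted p = 0.192). Ndufv1, the flavin-binding subunit where NADH is oxidised, measured 13.36, 13.30, 13.35 and 13.37 at 12 h, 13.26, 13.41, 13.10 and 13.12 at 6 h and 13.55, 13.50 and 13.46 in controls. Its fold changes were -0.16 ± 0.11 at 12 h (adjusted p = 0.490) and -0.28 ± 0.11 at 6 h (adjusted p = 0.233).

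Among accessory subunits Ndufc1 measured 12.64, 12.82, 12.77 and 12.62 at 12 h, 12.46, 12.81, 12.49 and 12.44 at 6 h and 12.94, 12.95 and 13.16 in controls. All treated arrays lay below all controls, at -0.30 ± 0.13 at 12 h (adjusted p = 0.235) and -0.47 ± 0.13 at 6 h (adjusted p = 0.112), and a second probe gave -0.31 at 12 h and -0.60 at 6 h. Without 6 h array 2 the 6 h value was -0.55 ± 0.12 (adjusted p = 0.0520). Ndufb2 had the largest fold change of the whole set, -0.53 ± 0.50 at 12 h and -0.87 ± 0.50 at 6 h, but its standard error was nearly as wide as its value at 12 h and its groups overlapped. Ndufa5 and Ndufs4 were on the other side of 0 at 6 h, with 0.32 ± 0.13 (adjusted p = 0.248) and 0.26 ± 0.12 (adjusted p = 0.306). The 4 probes of Ndufs4, which is needed for the assembly and stability of the NADH-oxidising module, ranged from -0.36 to 0.26 at 6 h.

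Complex II, succinate dehydrogenase, was measured through 3 of its 4 genes, without Sdha. Sdhb, the iron-sulfur subunit, measured 11.54, 11.54, 11.58 and 11.62 at 12 h, 11.11, 11.72, 11.47 and 11.75 at 6 h and 12.08, 11.93 and 11.62 in controls. The groups overlapped, since control array 3 was level with the 12 h arrays and below 6 h arrays 2 and 4. The fold changes were -0.31 ± 0.16 at 12 h (adjusted p = 0.349) and -0.37 ± 0.16 at 6 h (adjusted p = 0.283). Of the membrane anchors, Sdhc had -0.00 ± 0.12 at 12 h and 0.04 ± 0.12 at 6 h. Sdhd had 0.06 ± 0.53 at 12 h and -0.06 ± 0.53 at 6 h, with an error that leaves its direction unknown.

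Complex III, the cytochrome bc1 complex, had 7 measured genes, with a median of -0.17 at 12 h (5 below 0) and -0.14 at 6 h (4 below 0). At 6 h its genes stood on both sides of 0. Cyc1, cytochrome c1, which hands electrons to cytochrome c, measured 11.67, 11.64, 11.77 and 11.57 at 12 h, 11.66, 11.86, 11.57 and 11.68 at 6 h and 11.96, 11.95 and 12.00 in controls. No treated array reached the lowest control, and the fold changes were -0.31 ± 0.11 at 12 h (adjusted p = 0.166) and -0.28 ± 0.11 at 6 h (adjusted p = 0.234). Uqcr, a small subunit now named Uqcr11, had -0.24 ± 0.12 at 12 h (adjusted p = 0.321) and -0.36 ± 0.12 at 6 h (adjusted p = 0.177), again with no overlap. The core protein gene Uqcrc1 had -0.21 ± 0.13 at 12 h and -0.36 ± 0.13 at 6 h, whereas the other core protein gene, Uqcrc2, had 0.05 ± 0.11 at 12 h and 0.26 ± 0.11 at 6 h. Uqcrb, a small subunit, had 0.10 ± 0.33 at 12 h and 0.40 ± 0.33 at 6 h, the largest value of the complex at 6 h with an error nearly as large.

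Complex IV, cytochrome c oxidase, had 12 measured genes, with a median of -0.15 at 12 h (11 below 0) and -0.12 at 6 h (8 below 0). Ndufa4, once assigned to complex I, is counted here. Cox4i1, the common form of the subunit that binds ATP as an allosteric inhibitor, measured 13.96, 13.84, 14.04 and 14.08 at 12 h, 13.75, 14.26, 13.70 and 14.02 at 6 h and 14.31, 14.26 and 14.57 in controls. All 12 h arrays were below the controls, while 6 h array 2 equalled the lowest control. Fold changes were -0.40 ± 0.15 at 12 h (adjusted p = 0.190) and -0.45 ± 0.15 at 6 h (adjusted p = 0.182), or -0.57 ± 0.14 at 6 h without array 2 (adjusted p = 0.0781).

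Cox5b, a zinc-binding subunit on the matrix side, measured 14.23, 14.19, 14.33 and 14.19 at 12 h, 13.85, 14.09, 13.79 and 13.87 at 6 h and 14.43, 14.30 and 14.34 in controls. The 6 h arrays formed a separate low group, below both the 12 h and the control arrays, and array 2 was the highest of them. Against control the fold change was -0.12 ± 0.11 at 12 h (adjusted p = 0.615) and -0.45 ± 0.11 at 6 h (adjusted p = 0.0866), and 12 h against 6 h it was 0.33 ± 0.10 (adjusted p = 0.144). Without 6 h array 2 the 6 h value was -0.53 ± 0.11 and passed (adjusted p = 0.0461). Over the 24 settings other than the main fit, this one among them, the 6 h adjusted p of Cox5b ran from 0.0153 to 0.271. Its second probe gave -0.36 at 6 h and 0.43 for 12 h against 6 h.

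Cox6a1, the non-muscle form of subunit VIa, had the same arrangement as Cox5b. It measured 13.99, 14.10, 14.01 and 13.92 at 12 h, 13.68, 13.81, 13.75 and 13.73 at 6 h and 14.04, 14.10 and 14.03 in controls, so that the 6 h arrays lay below all others. The fold change was -0.05 ± 0.10 at 12 h (adjusted p = 0.838) and -0.32 ± 0.10 at 6 h (adjusted p = 0.161), and 0.26 ± 0.09 for 12 h against 6 h (adjusted p = 0.204). Of its other probes, a bright one gave -0.33 at 6 h and a dim one 0.18. Cox8a, the common form of subunit VIII, had -0.16 ± 0.13 at 12 h and -0.42 ± 0.13 at 6 h (adjusted p = 0.139), or -0.52 ± 0.12 at 6 h without array 2 (adjusted p = 0.0613). The remaining subunits with tissue forms had values within about 1 standard error of 0. Cox6b, now Cox6b1, had -0.11 ± 0.12 at 12 h and 0.03 ± 0.12 at 6 h. Cox7a1 had -0.11 ± 0.24 at 12 h and 0.08 ± 0.24 at 6 h, or -0.12 ± 0.21 at 6 h without array 2. Cox7a2, the non-muscle form of subunit VIIa, had -0.28 ± 0.32 at 12 h and -0.26 ± 0.32 at 6 h.

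**Figure D3:**
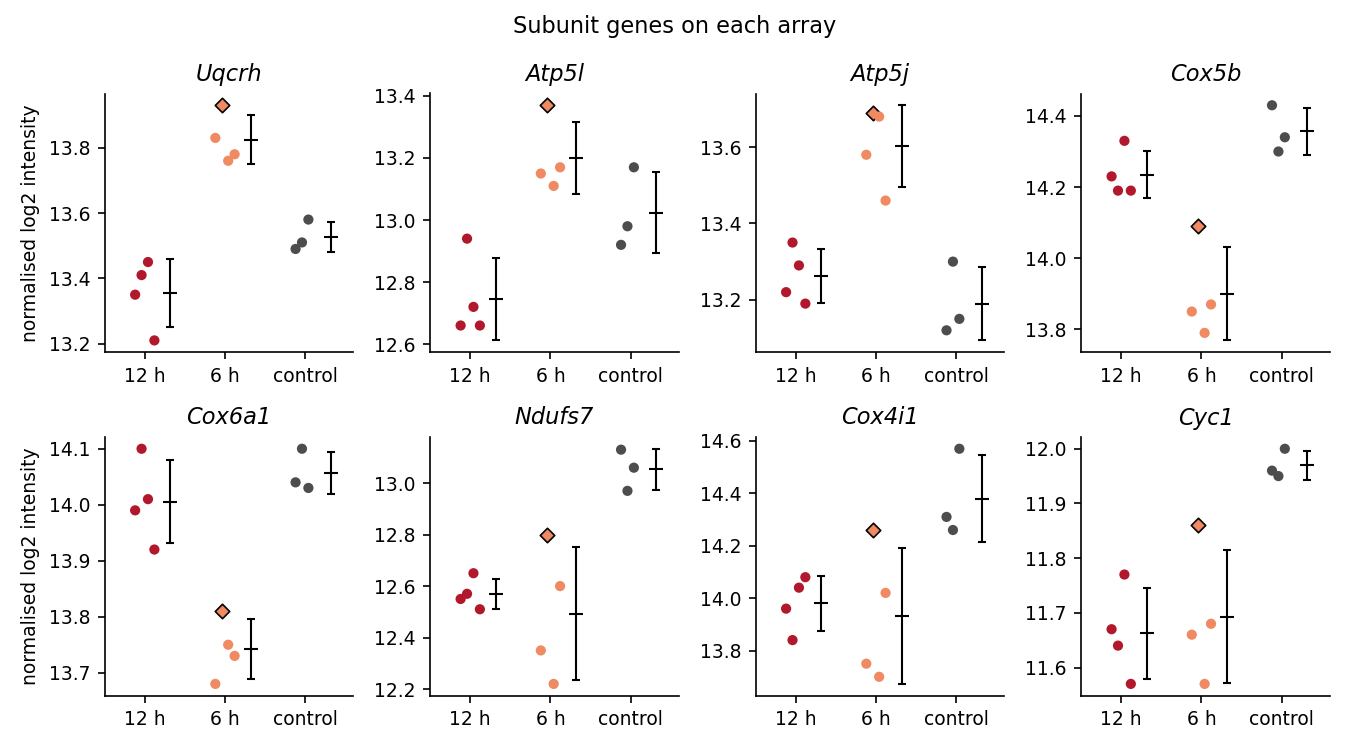
Normalised log2 intensity of 8 subunit genes, 1 point per array, with the mean and SD of each group beside the points (12 h and 6 h, n = 4; control, n = 3); each panel has its own vertical scale, which does not start at 0. The outlined diamond is 6 h array 2. Uqcrh, Atp5l and Atp5j were highest at 6 h, Cox5b and Cox6a1 lowest at 6 h, and Ndufs7, Cox4i1 and Cyc1 lower at both times than in controls by their means.

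ATP synthase had 15 measured genes and the medians nearest to 0 among the complexes with more than 3 genes, -0.06 at 12 h (11 below 0) and -0.09 at 6 h (9 below 0). The catalytic beta subunit, Atp5b, had 0.05 ± 0.12 at 12 h and 0.16 ± 0.12 at 6 h. The 3 genes for the rotating c ring encode one and the same mature protein from different precursors, and their values differed in sign with none called. Atp5g1 had -0.27 ± 0.13 at 12 h and -0.22 ± 0.13 at 6 h. Atp5g2 had -0.04 ± 0.16 at 12 h and 0.00 ± 0.16 at 6 h, and Atp5g3 had 0.08 ± 0.13 at 12 h and 0.25 ± 0.13 at 6 h. The 3 small membrane subunits were all below 0 at 12 h, with a median of -0.27. Among them Atp5j2, which encodes subunit f, measured 14.19, 14.07, 14.02 and 13.89 at 12 h, 14.20, 14.36, 14.15 and 14.36 at 6 h and 14.34, 14.26 and 14.49 in controls. Its 12 h arrays lay below all controls (-0.32 ± 0.12, adjusted p = 0.177) and its 6 h arrays overlapped them (-0.09 ± 0.12). Atp5e, the epsilon subunit, had the largest 6 h value, -0.65 ± 0.31 (adjusted p = 0.322), with overlapping arrays.

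Atp5j, coupling factor 6 of the peripheral stalk, measured 13.22, 13.35, 13.29 and 13.19 at 12 h, 13.58, 13.69, 13.68 and 13.46 at 6 h and 13.12, 13.30 and 13.15 in controls. The 6 h arrays were above all others, at 0.41 ± 0.11 against control (adjusted p = 0.108), and 12 h against control was 0.07 ± 0.11. A second, dimmer probe of the same gene gave -0.50 at 6 h, so the 2 probes disagree in sign and the gene's direction is not settled.

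The 3 factors had values between -0.18 and 0.05. Cox7a2l, a factor linked to supercomplexes of complexes III and IV, had -0.11 ± 0.10 at 12 h (adjusted p = 0.638) and -0.16 ± 0.10 at 6 h (adjusted p = 0.466). Atp5s, factor B of ATP synthase, had -0.11 ± 0.13 at 12 h and -0.18 ± 0.13 at 6 h. The complex I assembly factor Ndufaf1 had -0.02 ± 0.14 at 12 h and 0.05 ± 0.14 at 6 h.

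Between the 2 times the median was -0.01 (all genes -0.01), and 35 of 70 members were below 0 (52.2% of all genes). That count was 62 of 70 with each array centred on its median, where the median of all genes was -0.21, 29 of 70 with array brightness as a covariate and 27 of 70 without 6 h array 2. One of 70 members passed, lower at 12 h, where 1.22% of all genes were called (0.655% lower, 0.567% higher). At an unadjusted p under 0.05 the count was 11 of 70, 8 of them lower and 3 higher at 12 h, against 15.5% of all genes (9.61% lower, 5.9% higher). Groups did not overlap for 14 members (11 lower, 3 higher), against 9.81% of all genes (6.33% lower, 3.48% higher). A single call of 70 genes is near that background.

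That gene was Uqcrh, the acidic hinge subunit of complex III, which contacts cytochrome c1. It measured 13.35, 13.41, 13.45 and 13.21 at 12 h, 13.83, 13.93, 13.76 and 13.78 at 6 h and 13.49, 13.51 and 13.58 in controls. The 3 groups were fully separate, with 6 h highest and 12 h lowest. Uqcrh fell at 12 h relative to 6 h, with a log2 fold change of -0.47 ± 0.10 (adjusted p = 0.0469) and a 95% interval of -0.68 to -0.25. Against control it had -0.17 ± 0.11 at 12 h (adjusted p = 0.437) and 0.30 ± 0.11 at 6 h (adjusted p = 0.206). Without 6 h array 2 the value for 12 h against 6 h was -0.43 (adjusted p = 0.114), and with any single array left out the adjusted p lay between 0.0536 and 0.155. Over all 24 other settings it ran from 0.00729 to 0.395. Within the 2 chips that held both times the difference was -0.35 and -0.56, and with chip as a block -0.46 (adjusted p = 0.395, with 4 residual degrees of freedom in place of 8).

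Some ATP synthase and complex I genes had 12 h arrays below all 6 h arrays without passing. Atp5l, subunit g of ATP synthase, measured 12.66, 12.94, 12.72 and 12.66 at 12 h, 13.15, 13.37, 13.11 and 13.17 at 6 h and 12.92, 12.98 and 13.17 in controls. Every 12 h array was below every 6 h array, at -0.45 ± 0.11 (adjusted p = 0.0799), and a second bright probe gave -0.38. Atp5j had -0.34 ± 0.10 (adjusted p = 0.133), while its second probe gave 0.29, the opposite sign. Ndufa5 had -0.35 ± 0.12 (adjusted p = 0.184) and Ndufs4 -0.34 ± 0.11 (adjusted p = 0.177), both with no overlap between 12 h and 6 h arrays. These are the values of their brightest probes. A second, dimmer probe of Ndufa5 gave -0.15, and the other probes of Ndufs4 gave -0.27, -0.16 and 0.09.

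The promoters of some of these genes are shown because nuclear respiratory factor 1 (NRF1) and the ETS factor GABP are known regulators of respiratory chain genes. RefSeq promoters (mouse build GRCm38.p6) matched 60 of 70 members, and the 250 bases before each start were searched on both strands for 3 motifs: GCGCA, any base and GCGC (NRF1), CCGGAAG (ETS) and AAGATGGC (YY1). Each motif was counted separately, whether or not it overlapped another. The NRF1 motif was found in 11 of 60 members (18.3%) against 4.23% of 27025 genes, the ETS motif in 13 (21.7%) against 7.83%, and the YY1 motif in 1 (1.67%) against 1.83%. The comparison was not matched for base composition. Capitals mark NRF1 and ETS matches on either strand in the 120 bases before the start, read 5' to 3' on the gene's strand. Uqcrh (chr4:116075071-116075190, minus strand) is shown as the called gene, Cox6a1 (chr5:115348959-115349078, minus) and Sdhd (chr9:50603850-50603969, minus) as 2 of the 3 members with both the NRF1 and the ETS motif, and Cox5b (chr1:36691367-36691486, plus) and Ndufs7 (chr10:80249329-80249448, plus) as members with small p and no match in the window.
Uqcrh: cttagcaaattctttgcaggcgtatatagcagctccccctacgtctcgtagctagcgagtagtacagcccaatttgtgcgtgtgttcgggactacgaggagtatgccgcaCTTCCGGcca
Cox6a1: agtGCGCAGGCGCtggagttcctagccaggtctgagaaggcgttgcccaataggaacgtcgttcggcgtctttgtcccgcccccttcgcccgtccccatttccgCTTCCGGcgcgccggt
Sdhd: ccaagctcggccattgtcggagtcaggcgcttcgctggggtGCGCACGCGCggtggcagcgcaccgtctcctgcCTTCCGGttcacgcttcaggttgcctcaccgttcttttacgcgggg
Cox5b: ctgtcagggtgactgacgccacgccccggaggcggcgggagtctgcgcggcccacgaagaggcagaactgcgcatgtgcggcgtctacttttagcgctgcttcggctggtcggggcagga
Ndufs7: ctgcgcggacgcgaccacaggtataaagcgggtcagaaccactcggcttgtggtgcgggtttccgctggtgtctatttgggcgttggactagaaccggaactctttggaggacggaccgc
Members with an NRF1 or ETS match (21) and without (39) had medians of -0.17 and -0.16 at 12 h, -0.18 and -0.16 at 6 h and -0.03 and 0.04 for 12 h against 6 h. These medians lay within 0.07 of each other in every comparison. A match says only that these letters are there.

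Another pattern within the set ran across arrays. In 7 of 70 members (10%) the 3 control arrays differed by more than 1 log2 unit, against 4.57% of all genes; this limit was set after the values were seen. The 7 were Sdhd, Uqcrb, Ndufb2, Ndufb9, Ndufb4, Atp5a1 and Ndufab1, which belong to 4 different complexes. For comparison, the median control range was 0.27 over members and 0.36 over all genes, so the median member varied less between controls than the median gene.

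Sdhd measured 7.93, 7.98, 7.04 and 9.02 at 12 h, 6.75, 7.92, 7.86 and 8.96 at 6 h and 8.45, 8.35 and 6.98 in controls. Its groups overlapped throughout, and the range over all 11 arrays was 2.27. Ndufb9, an accessory subunit of complex I, measured 8.92, 9.19, 8.47 and 9.76 at 12 h, 7.41, 9.02, 8.43 and 10.21 at 6 h and 10.02, 9.61 and 8.81 in controls, a range of 2.79. Atp5a1, the alpha subunit of ATP synthase, measured 9.72, 9.71, 8.78 and 10.28 at 12 h, 8.02, 9.33, 9.57 and 10.36 at 6 h and 9.91, 9.84 and 8.71 in controls. In all 7 genes the lowest arrays were 12 h array 3, 6 h array 1 and control array 3, and the highest were 12 h array 4, 6 h array 4 and control array 1. Over all members 12 of 70 had this same order of extremes in all 3 groups (17.1%), against 2.35% of all genes; the order was looked for after the values were seen. The other members with it were Atp5e, Atp5f1, Cox6c, Cox7b and Ndufb5. The 3 highest arrays share 1 chip, and 6 h array 1 and control array 3 share another. The standard errors of these genes reached 0.53, and the 5 members whose 12 h interval reached 1 log2 unit were all among them. The part of chip or of array handling was not tested.

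**Figure D4:**
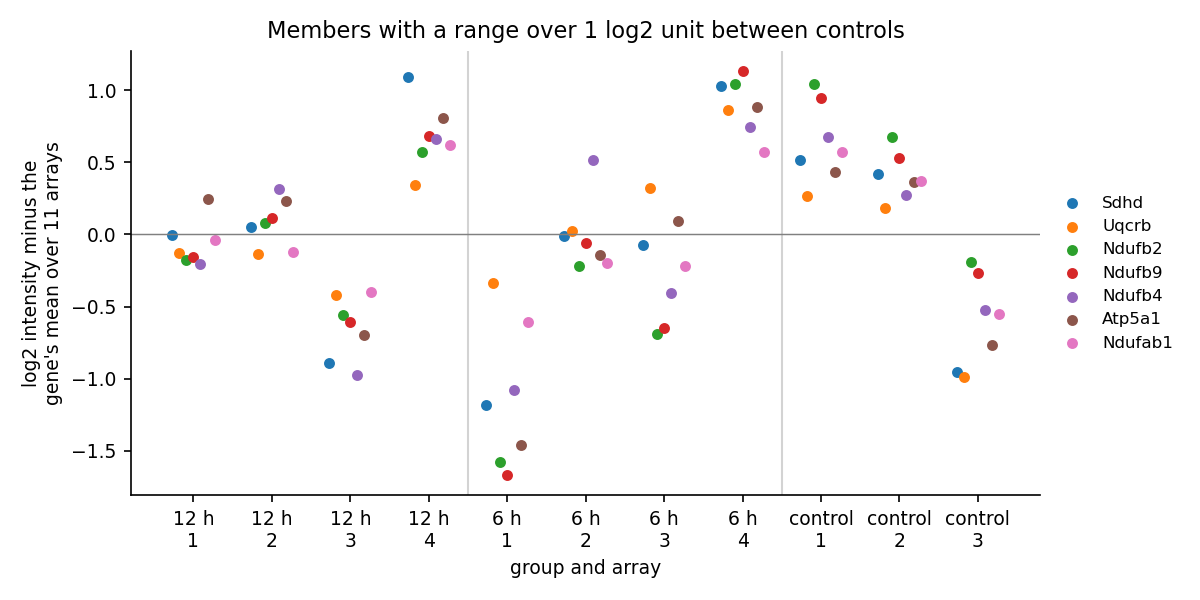
Log2 intensity of the 7 members with a control range over 1 log2 unit, minus each gene's mean over 11 arrays, 1 point per gene and array, with grey lines between 12 h, 6 h and control. In every group the same array is lowest (12 h array 3, 6 h array 1, control array 3) and the same array highest (12 h array 4, 6 h array 4, control array 1) for all 7 genes.

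Genes that work with these complexes were read from 6 lists. With limma 0 of their 80 measured genes passed in any of the 3 comparisons. At an unadjusted p under 0.05 there were 12 of 80 at 12 h (9 lower, 3 higher), against 17.7% of all genes (10.4% lower, 7.29% higher). At 6 h there were 13 of 80 (9 lower, 4 higher), against 16.7% of all genes (8.68% lower, 8.06% higher). For 12 h against 6 h there were 5 of 80, against 15.5% of all genes. The 25 assembly factors had a median of -0.13 at 12 h and -0.12 at 6 h. The 14 genes of cytochrome c, coenzyme Q and electron transfer flavoprotein had -0.12 at 12 h and -0.09 at 6 h, and the 13 regulators of mitochondrial biogenesis had -0.09 at 12 h and -0.04 at 6 h. The 9 genes of adenine nucleotide and proton handling had -0.01 at 12 h and -0.00 at 6 h. The 7 mitochondrially encoded subunits had 0.05 at 12 h and -0.04 at 6 h. The 12 enzymes of the tricarboxylic acid cycle, on the other side of 0 from the subunits, had 0.05 at 12 h and 0.11 at 6 h.

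Among assembly factors, 4930455C21Rik (now Timmdc1), a complex I assembly factor, had -0.74 ± 0.20 at 12 h (adjusted p = 0.0724), and the copper chaperone Cox17 had -0.41 ± 0.12 at 6 h (adjusted p = 0.125). Coq7, an enzyme of coenzyme Q synthesis, measured 8.93, 8.81, 8.82 and 8.86 at 12 h, 8.55, 8.84, 8.41 and 8.65 at 6 h and 9.21, 8.99 and 8.99 in controls, with all treated arrays below the controls (6 h -0.45 ± 0.12, adjusted p = 0.115). Etfb, a subunit of the electron transfer flavoprotein, had -0.33 ± 0.14 at 12 h (adjusted p = 0.253), and Cycs, cytochrome c itself, had -0.21 ± 0.11 at 12 h and -0.06 ± 0.11 at 6 h.

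Of the regulators, the estrogen-related receptor gene Esrra, a nuclear receptor that drives respiratory chain genes, measured 9.0, 8.96, 9.22 and 8.87 at 12 h, 8.76, 9.20, 8.96 and 8.84 at 6 h and 9.42, 9.30 and 9.42 in controls. No treated array reached the controls, at -0.36 ± 0.13 at 12 h (adjusted p = 0.176) and -0.44 ± 0.13 at 6 h (adjusted p = 0.142). The coactivator gene Ppargc1a had -0.28 ± 0.14 at 12 h and -0.27 ± 0.14 at 6 h, and its groups overlapped because control array 1 was as low as the treated arrays. Tfam, which packages mitochondrial DNA, had -0.14 ± 0.15 at 12 h and -0.34 ± 0.15 at 6 h. Of the factors whose motifs were searched, Nrf1 had -0.09 ± 0.16 at 12 h and -0.02 ± 0.16 at 6 h. Gabpa had 0.09 ± 0.25 at 12 h and -0.04 ± 0.25 at 6 h.

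Fh1, fumarase, had 0.27 ± 0.11 at 12 h (adjusted p = 0.220) and 0.39 ± 0.11 at 6 h (adjusted p = 0.116), with treated arrays above all controls. Suclg2, a subunit of succinyl-CoA ligase, had 0.19 ± 0.11 at 12 h (adjusted p = 0.383) and 0.39 ± 0.11 at 6 h (adjusted p = 0.116), likewise with no overlap. Atpif1, the inhibitor of ATP synthase when it runs backwards, had -0.43 ± 0.13 at 12 h (adjusted p = 0.111) and -0.17 ± 0.13 at 6 h. The outer membrane channel gene Vdac2 had -0.03 ± 0.14 at 12 h and -0.46 ± 0.14 at 6 h (adjusted p = 0.154). Of the 4 measured mitochondrially encoded complex I genes, mt-Nd5 had 0.35 ± 0.35 at 12 h and -0.55 ± 0.35 at 6 h, mt-Nd1 had 0.24 at 12 h and -0.09 at 6 h, and mt-Nd4 had 0.05 at 12 h and -0.04 at 6 h. The last, mt-Nd4l, measured 8.68, 8.25, 7.58 and 8.84 at 12 h, 7.5, 8.11, 8.30 and 9.14 at 6 h and 8.34, 8.45 and 6.76 in controls (0.49 ± 0.45 at 12 h, 0.42 ± 0.45 at 6 h). Its lowest array in each group, and its highest at 12 h and 6 h, were those of the 7 variable subunit genes. The full order of extremes was shared by 6 of the 80 genes (7.5%): Sco1, Cox11, Dld, Slc25a3 and the mitochondrially encoded mt-Co2 and mt-Atp6.

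**Figure D5:**
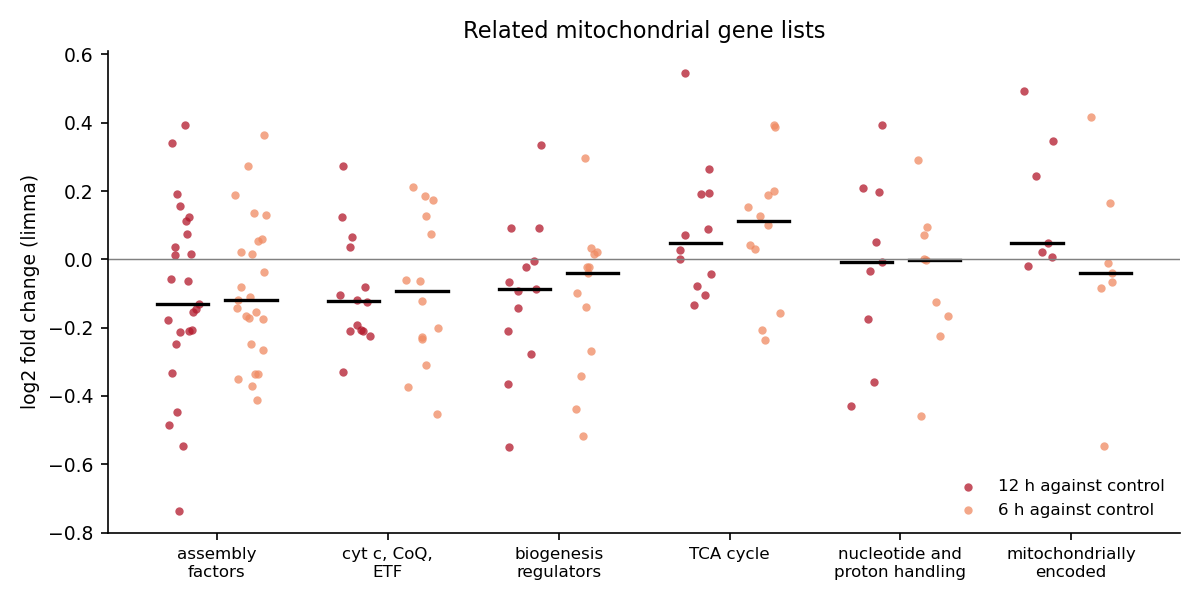
Log2 fold change against control at 12 h (dark red) and 6 h (orange) for genes of 6 related lists, 1 point per gene, with a black bar at each median (cyt c, cytochrome c; CoQ, coenzyme Q; ETF, electron transfer flavoprotein; TCA, tricarboxylic acid). The medians ran from -0.13 for assembly factors at 12 h to 0.11 for the TCA cycle at 6 h.

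Markers of other cell types differed in part between the groups. The summed level of 7 erythroid markers was 50644 to 61343 at 12 h, 56054 to 70269 at 6 h and 26404 to 51369 in controls, with 3 to 5 of 7 detected on an array, so the 6 h and control sums did not overlap. Such a sum is weighted to the brightest probes, here those of the globin genes Hba-a1 and Hbb-b1. At 6 h these were above all controls, while Alas2 (0.20 ± 0.25) and Slc4a1 (0.96 ± 0.42) overlapped the controls. The 5 Kupffer cell markers summed to 1804 to 2764 at 12 h, 2093 to 4914 at 6 h and 2825 to 4181 in controls, with 3 or 4 of 5 detected, so the 12 h and control sums did not overlap. No erythroid or Kupffer cell marker passed. The 10 hepatocyte markers summed to 149466 to 158665 at 12 h, 123235 to 155642 at 6 h and 141550 to 154080 in controls, and the groups overlapped at both times. Their part in the small shift of the respiratory chain genes was not tested. Within the chips that held both groups the member median was -0.10 and -0.20 at 12 h, and -0.14, -0.19 and -0.04 at 6 h, and with chip as a block it was -0.14 at 12 h and -0.13 at 6 h.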

How the data were processed

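RNA of whole liver from 11 mice was measured on Illumina BeadChips. Per the file headers, the authors deposited for each probe and array a mean bead signal, which is an intensity on a linear scale without normalisation, and a detection p-value. The submitters' processing notes name GenomeStudio. A second table of intensity values, which the authors normalised in a way the headers do not state, served as an alternative.

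Groups came from the labels. With neqc (limma 3.58.1, R 4.3.3) signals were background-corrected by normexp, using the detection p-values and an offset of 16, then quantile-normalised and taken to log2. The detection filter left 16978 probes, and each symbol was represented by its brightest one. Several probes were kept for 19 members. All probes of a gene had the same sign for 12 of the 19 at 12 h and for 13 at 6 h. For 12 h against 6 h it was 13 of 19. A single limma model held the 3 group means, with 8 residual and 4.18 prior degrees of freedom. Its moderated test was 2-sided, with Benjamini-Hochberg adjustment over 12512 genes in each comparison. The script was tested on simulated data.

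The members, the related lists and the markers were chosen with earlier results of these data known. Named genes were every called member, the member of each complex with the smallest p and with the largest fold change at each time, the complex II and tissue-form genes, and in each related list the gene with the smallest p; others were added after their values were seen. Chip numbers came from the table's column headers. The alternatives were other background, scaling, filter, probe, variance and block settings and leaving out each array. The number of arrays and the spread between animals limit the precision.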

Additional observations from a re-analysis of the deposited data

Results flagged for a closer look

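In Cox7a2l, the factor linked to supercomplexes of complexes III and IV, 1 of 4 arrays at 6 h lay apart from the others. Array 1 measured 11.25, while the nearest measured 11.42 and the highest 11.44, a gap of 0.9 of the whole range. Of 82 groups of 4 arrays tested in this way it was the 1 that passed Dixon's 95% limit, and chance alone would flag about 1 group in 20. Uqcrh differed between the 2 times of killing, at -0.47 on the log2 scale for 12 h against 6 h. That is its fold change at 12 h against control minus that at 6 h, and the test of this difference gave an adjusted p of 0.0469 (limma), above 0.05 when any single array was left out.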

How the results depend on the processing

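The count of members called depended on the processing. The number of all genes called, out of 12512 unless stated, moved as well and is given in brackets. At 6 h it was 0 members in the report (141 genes). It was 5 with no background step (272), 5 when the variance was trended and robust (242) and 4 with array brightness as a covariate (512). Without a detection filter it was 1 (142 of 31508). With single arrays left out it was 0 to 2, with 2 without 6 h array 2 (165 of 12374). At 12 h it was 0 in the report (404) and with any single array left out. It was 1, Ndufs7, without background correction (439), with only the compared groups (699), with array weights (743) or with a trended variance (446). For 12 h against 6 h it was 1 in the report (153), 3 without background correction (287), 4 with median centring (851) and 4 with a trended variance (251). It was 0 with the authors' values (124), with only the compared groups (96), with chip as a fixed block (5) and with brightness as a covariate (173). With any single array left out it was also 0. Uqcrh was called in 9 of 25 settings, with the same sign in all (-0.67 to -0.42), and tested among all probes its adjusted p was 0.0609. Over the 25 settings the number of all genes called ran from 58 to 512 at 6 h (141 in the report), from 132 to 743 at 12 h (404) and from 5 to 851 for 12 h against 6 h (153).

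The median of the members was -0.262 at 12 h, -0.0335 at 6 h and -0.195 for 12 h against 6 h with median centring, which moved the median of all genes to -0.11, 0.12 and -0.21; relative to those the members lay at -0.16, -0.15 and 0.02. With brightness as a covariate it was -0.0909 at 12 h and 0.108 for 12 h against 6 h. With single arrays left out it ran from -0.165 to -0.128 at 12 h, from -0.192 to -0.0778 at 6 h (the highest without 6 h array 1) and from -0.0775 to 0.0551 for 12 h against 6 h. The cause of these shifts was not tested. Uqcrh, the 1 member called in the report, kept its sign for 12 h against 6 h. Atp5j at 6 h, called in 2 of 25 settings, ran from -0.05 to 0.48 over the other settings.

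The same mouse numbers recur in the groups, but same-numbered arrays correlated between -0.18 and 0.45 in their deviations, so the numbers were not taken as pairs. With a replicate block 0 members were called in every comparison, Uqcrh had an adjusted p of 0.0888, and the medians were -0.168 at 12 h, -0.169 at 6 h and -0.00528 for 12 h against 6 h. At this number of arrays changes under about 0.28 log2 units lay within the typical interval of a member.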
